A study of Heterocephalus glaber with 3 samples.

Results

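The genes described here are 124 lineage and position factors of the naked mole-rat (Heterocephalus glaber), measured in single cells of lung tumours. They were chosen by symbol alone. Members are the HOX (clusters A to D), FOX, SOX, GATA, TBX, PAX, KLF and NKX genes found in the feature list. SOX2, SOX9 and FOXP3 were set aside. The symbols HOXA6, HOXA7, HOXC6 and HOXD8 were not in the feature list, so these genes were not measured. The 124 members were 35 HOX, 32 FOX, 14 SOX, 12 KLF, 11 NKX, 9 PAX, 8 TBX and 3 GATA genes among 23189 features. All 124 symbols were also found in RefSeq's gene table for the species (assembly GCF_053883595.1).

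The study placed 3 animals in 1 group, with 1 library per animal, numbered replicates 1 to 3. All carried lung tumours 15 weeks after infection with a CRISPR adenovirus, and the edits named in the labels include loss of Rb and an inversion joining Eml4 to Alk. Tumours were cut away from normal lung by hand, dissociated and captured with 10x Genomics 3′ chemistry, so cells of the surrounding lung and blood were also present. The labels name no untreated animal, so every comparison below is between cell classes of the same 3 animals, and the labels give neither age nor strain.

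HOX proteins carry a code of position along the body: the genes lie in 4 clusters, those numbered low act towards the head and those numbered high towards the tail, and fibroblasts keep the code of their place of origin into adult life. FOX, SOX, GATA, TBX, PAX, KLF and NKX proteins instead mark lineages. In the lung NKX2-1 and FOXA2 specify the epithelium, whereas HOXA5, HOXB5, FOXF1, FOXF2 and TBX5 act in the mesenchyme around it, with MEIS and PBX proteins as partners of HOX proteins on DNA.

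After filtering, 24599 cells were kept (7929, 8891 and 7779 in replicates 1, 2 and 3), from 76093932, 86575320 and 91949365 deposited UMIs (unique molecules counted). Members were sparse: they held 0.0481% of the UMIs of kept cells, 101 of the 124 had any UMI, and 45 had at least 100. SOX genes held 34.54% of the members' UMIs, KLF genes 29.9%, FOX genes 24.24%, NKX genes 5.9%, HOX genes 2.28%, TBX genes 2.15%, PAX genes 0.87% and GATA genes 0.12%. Pairs of libraries shared 24, 21 and 31 barcodes, 0 of them with the same UMI total, and were treated as 3 samples.

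Cells were clustered without any member gene and classes were named from lists of other marker genes, so each name below means cells like that type. Of 25 clusters 4 stayed unnamed and held 4459 cells. Levels are in CPM, a gene's UMIs summed over an animal's cells of a class and scaled to the same total. The fibroblast-like cells formed 2 classes. Tumour-type mesenchyme was the cluster with at least 5 CPM of Alk, the kinase gene rearranged by the edit: 1622 cells (721, 323 and 578 in replicates 1, 2 and 3), led by GKN2, MMP3, IGF2 and SFRP4. Resident fibroblasts were the other cluster: 1245 cells (360, 452 and 433), led by CCL19, FIBIN, MFAP4 and CCL11. Alk stood at 10.67, 20.14 and 16.6 CPM in the tumour-type cells and at 2.003, 2.0 and 1.136 CPM in the resident cells. Epithelial cells also carried it, at 3.502, 10.42 and 12.75 CPM, so Alk did not single out the tumour-type cells among all classes. The epithelial class was mixed in this respect. In a finer clustering its subcluster led by SCGB3A2 and AGR2 (273 cells) held Alk at 15.22 CPM over all animals. The alveolar type 2 subcluster (243 cells) held 0 CPM and the ciliated one (141 cells) 2.339 CPM.

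The mesenchymal name of the tumour-type cells was checked against markers. The fibroblast list summed to 8596, 4324 and 6895 CPM in them, with 7 of 13 markers detected, and to 10250, 6752 and 9333 CPM in resident cells, with 9 of 13, so it was lower in the tumour-type cells of every animal. Within the list, collagen gene COL1A1 stood at 3579, 1653 and 3408 CPM in them and at 1338, 785.4 and 1013 CPM in resident cells. The tumour-type cells also held epithelial RNA: the basal epithelial list summed to 578.9, 719.2 and 918.2 CPM against 62.08, 126.7 and 71.19 CPM in resident cells, most of it KRT14. The general epithelial list summed to 83.94, 123 and 95.54 CPM, with 3 of 6 markers detected, against 22.83, 12.33 and 31.05 CPM with 0 of 6 in resident cells and 13110, 3740 and 9007 CPM in epithelial cells. On that list the adhesion gene CDH1 was at 0.1233, 0.1651 and 0.2913 CPM in tumour-type cells, without a UMI in resident cells, and at 53.53, 71.07 and 64.03 CPM in epithelial cells. Their fibroblast score was 3.018 and their basal epithelial score 2.216, so the name rests on a limit on such rival scores that was set after the clusters were seen. In the finer clustering the larger of their subclusters (1193 cells, scores 2.872 and 2.449) went past that limit and lost the name. Thus "tumour-type" here means these Alk-bearing cells and no settled cell type, and "mesenchyme" is only a label for them.

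The HOX genes set the 2 fibroblast-like classes apart. Resident fibroblasts held 1547 HOX UMIs and tumour-type cells 55, although a tumour-type cell had a median of 17430 UMIs and a resident cell 5386. Summed over all 35 genes, HOX stood at 177.0, 196.4 and 195.4 CPM in the resident cells of replicates 1, 2 and 3 and at 0.8634, 1.486 and 3.107 CPM in the tumour-type cells. The classes were far apart in every animal. Of the 55 tumour-type UMIs 16 were of HOXD4 (0.3084, 0.3302 and 0.8739 CPM). The tumour-type sum lay near that of several other classes. It was 1.001, 0.9476 and 4.056 CPM in epithelial cells and 2.699, 2.468 and 2.267 CPM in T or NK cells. Plasma cells held 1.118, 1.306 and 0.7315 CPM, and monocytes or macrophages 1.066, 1.542 and 0.9382 CPM. A low HOX sum was thus not particular to the tumour-type cells.

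The resident code was made of low-numbered genes of clusters A and B. HOXA5, which lung mesenchyme needs for normal airway and tracheal form, stood at 74.89, 66.34 and 94.67 CPM. HOXB5, a gene of the same paralogous group, stood at 31.64, 51.34 and 39.0 CPM, and HOXB2 at 16.42, 17.34 and 14.39 CPM. HOXB2 varied least of these 3 between animals. Of the 19 measured genes of groups 1 to 8, 14 had at least 3 UMIs in resident cells, among them HOXA3, HOXB8, HOXC4 and HOXC5 with 10, 12, 7 and 3. Among the measured genes, which lack HOXC6 and HOXD8, cluster C was thin there, at 1.602, 2.0 and 0 CPM summed. Cluster D had 2 UMIs in all. The 16 genes of groups 9 to 13, which pattern the trunk's hind part, limbs and urogenital tract, had 0 UMIs in resident fibroblasts, which allows up to 0.4533 CPM.

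**Figure D1:**
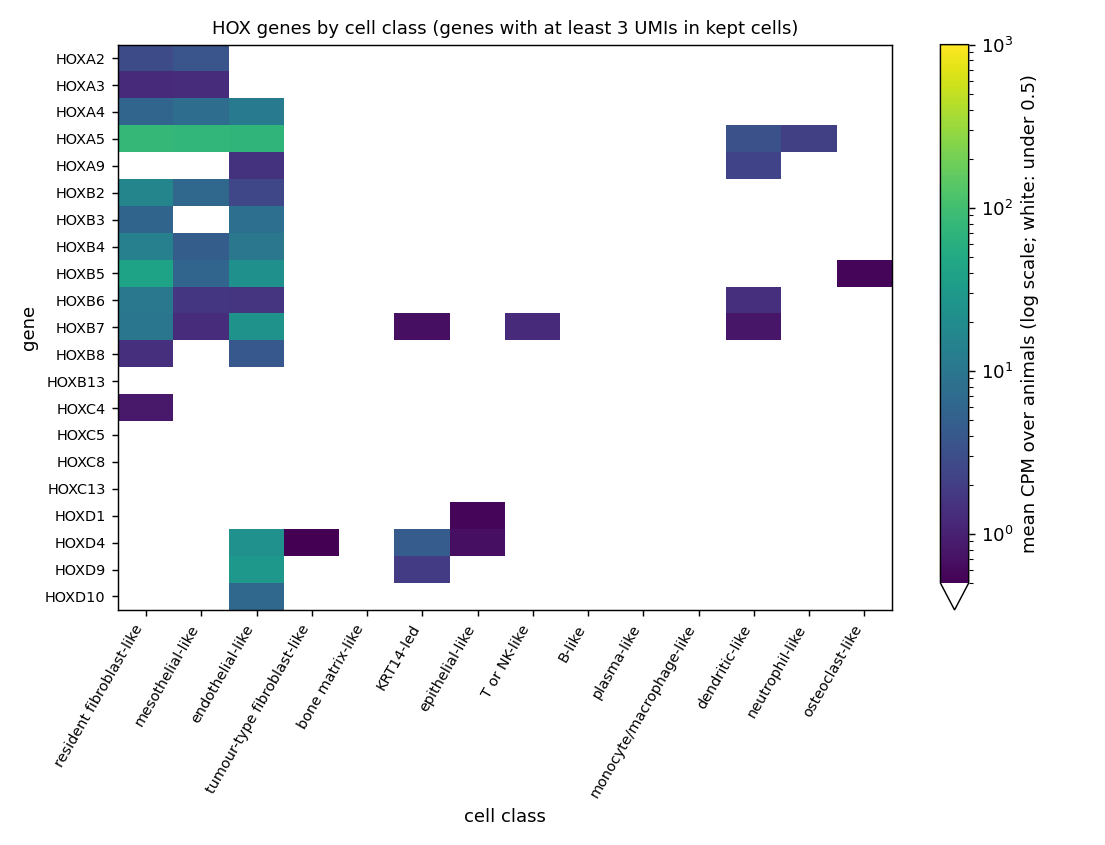
Level of HOX genes with at least 3 UMIs (rows, ordered by cluster and number) in each cell class (columns), as mean CPM over the animals with at least 20 cells of the class, on a log colour scale that is white under 0.5. Resident fibroblasts and mesothelial cells show clusters A and B of groups 1 to 8, endothelial cells also show cluster D, and the tumour-type column is white except for HOXD4.

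Endothelial cells carried a different HOX code from that of the resident fibroblasts. Their HOX sum was 283.4, 236.7 and 135.9 CPM in 53, 101 and 45 cells. Cluster D stood at 86.25, 40.19 and 50.56 CPM in them. Both were above the tumour-type values in every animal, and cluster D was above the resident values too.

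Groups 9 to 13 stood at 49.28, 31.26 and 31.6 CPM in endothelial cells, which held 47 of the 128 UMIs of these groups in all kept cells. HOXD9 gave 34 of its 48 UMIs there (40.04, 17.86 and 28.44 CPM), HOXD4 gave 27 of its 86 (40.04, 11.91 and 18.96 CPM), and HOXD10 gave 10 of its 10. Endothelial HOXA5 stood at 70.84, 107.2 and 37.92 CPM, a range that takes in the resident values. The class was defined from the same cells, so these levels are a description with no test.

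Mesothelial cells, the lining of the pleura, were numerous enough only in replicates 2 and 3 and held HOX sums of 106.9 and 118.5 CPM. Their leading member was also HOXA5, at 67.32 and 88.22 CPM, close to the resident level. Blood-derived classes had little HOX RNA: monocytes or macrophages had 1.066, 1.542 and 0.9382 CPM, and dendritic cells 6.385, 7.627 and 11 CPM.

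HOXA9, a gene of blood progenitors, had 39 UMIs, of which 20 were in the dendritic class (1.344, 1.43 and 4.23 CPM). In the finer clustering 14 of these 39 lay in an unnamed cluster of 43, 52 and 36 cells led by the primary granule genes ELANE, PRTN3 and MPO, at 6.07, 5.522 and 22.11 CPM. HOXB13 had 7 UMIs, 6 of them in T or NK cells of replicate 2. Of the 35 HOX genes 11 had no UMI in any kept cell.

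The comparison of tumour-type with resident cells asked which position and lineage factors separate the 2 fibroblast-like classes. Counts were summed per animal and class and tested with edgeR's quasi-likelihood test with the animal as a block, and p-values were adjusted by Benjamini-Hochberg over all 11256 genes tested. The classes were drawn from other genes of the same cells, so these p-values are not calibrated and serve to order the differences. Of the 124 members 37 passed the filter on low counts: 5 were called higher in tumour-type cells, 20 lower and 12 neither. Over all genes 47.2% were called, 24.1% higher and 23.1% lower, so a call by itself sets no member apart. The median log2 fold change was -0.83 over the 37 tested members and -0.01 over all genes tested. A member can pass the filter only through the class where it is high, so these counts describe the tested members alone.

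All 9 HOX genes tested were called lower in tumour-type cells. HOXA5 stood at 0.1233, 0.1651 and 0.0971 CPM in tumour-type cells of replicates 1, 2 and 3 against the resident 74.89, 66.34 and 94.67 CPM. That is 4 UMIs against 636, a log2 fold change of -9.25 ± 0.23 (SE; edgeR adjusted p = 6.5e-08).

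HOXB5 had 7 UMIs against 336, or 0, 0.3302 and 0.4855 CPM against 31.64, 51.34 and 39.0 CPM (log2 fold change -7.44 ± 0.37, edgeR adjusted p = 1.5e-06). HOXB2 had 5 against 131, or 0.1233, 0.1651 and 0.1942 CPM against 16.42, 17.34 and 14.39 CPM. In each of these genes the lowest resident animal lay far above the highest tumour-type one.

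The other HOX genes had 0 to 3 UMIs in tumour-type cells, and ratios are given with 95% counting intervals. HOXB4 was 224-fold lower (60.6 to 1874; 2 against 112 UMIs), and HOXB6 340-fold (59.4 to 13590; 1 against 85). HOXB7 was 104-fold lower (34.3 to 515.6; 3 against 78), and HOXA4 66.7-fold (21.6 to 334.4; 3 against 50). HOXB3 and HOXA2 had no UMI in tumour-type cells and 48 and 24 in resident cells. Against a floor of 3 UMIs over the class, HOXB3 was at least 64.0-fold lower and HOXA2 at least 32.0-fold lower.

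**Figure D2:**
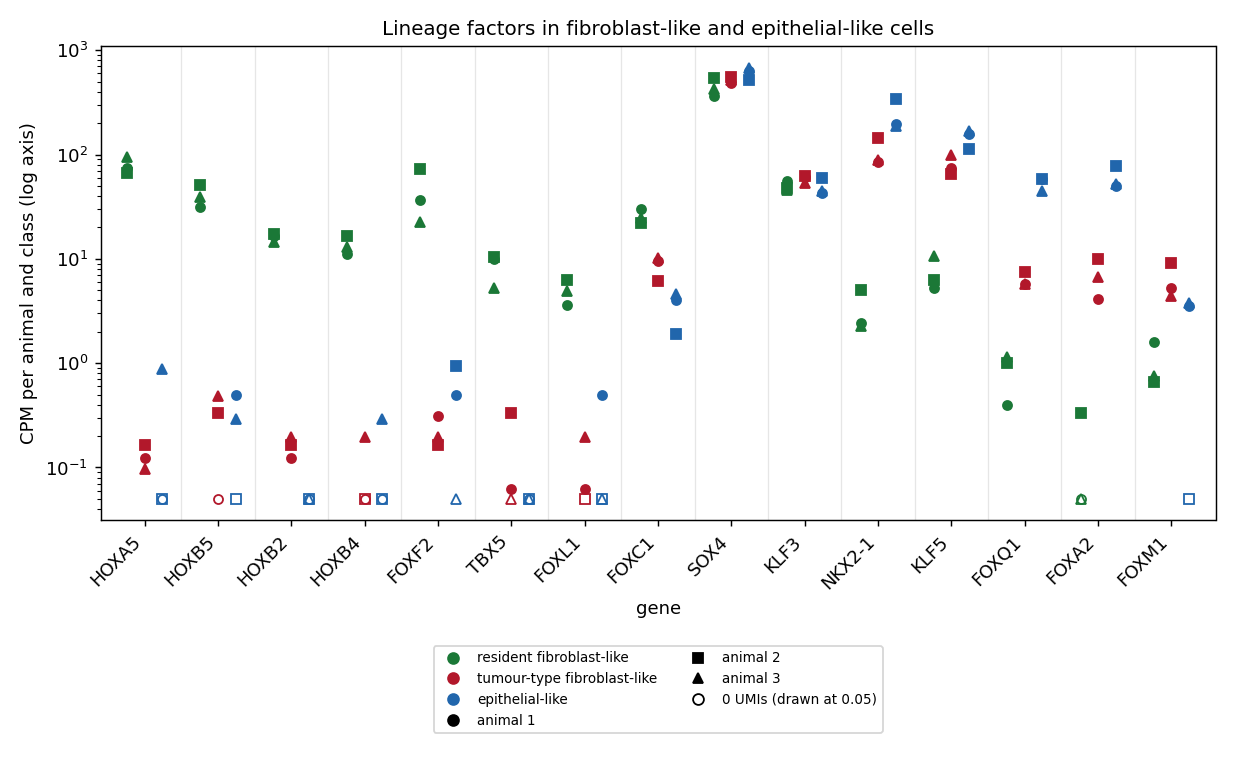
Level of named members in each animal (points, CPM on a log axis, open where no UMI was found) in resident fibroblasts, tumour-type mesenchyme and epithelial cells. HOXA5, HOXB5, FOXF2 and TBX5 are under 1 CPM in tumour-type and epithelial cells of all 3 animals, and NKX2-1 and KLF5 of the tumour-type cells lie between the resident and epithelial points.

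Mesenchymal lineage members were lower as well. FOXF2, a hedgehog-responsive factor of gut and lung mesenchyme, stood at 0.3084, 0.1651 and 0.1942 CPM against 36.45, 73.34 and 22.72 CPM in resident cells. The log2 fold change was -7.32 ± 0.27 (edgeR adjusted p = 3.3e-07), and no tumour-type animal came near a resident one.

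TBX5, the T-box factor of heart, forelimb and lung bud mesenchyme, had 3 UMIs against 70 (0.06167, 0.3302 and 0 CPM against 10.01, 10.33 and 5.301), 93.4-fold lower with a counting interval of 30.7 to 463.8. FOXL1, of the mesenchyme under visceral epithelium, had 3 UMIs against 41 (54.7-fold lower, 17.4 to 276.1). PAX2, known from kidney development, had 2 against 22 (44.0-fold lower, 10.8 to 386.3). All of these rest on few molecules.

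FOXC1, a factor of mesenchyme and vessels, stood at 9.621, 6.108 and 10.29 CPM in tumour-type cells against 30.04, 22.0 and 24.61 CPM (log2 fold change -1.68 ± 0.17, edgeR adjusted p = 6.9e-05). KLF15, a regulator of metabolism, stood at 0.3084, 1.816 and 0.1942 CPM against 4.406, 6.001 and 3.029 CPM. In these genes, too, the classes did not overlap. Tumour-type cells kept a measurable level of FOXC1 in every animal, whereas KLF15 rested on 5, 11 and 2 UMIs there.

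Of the list of lung and visceral mesenchyme members 13 were measured and 8 tested. Of these 7 were called lower and 0 higher, with a median log2 fold change of -5.92. Over all genes 23.1% were called lower. HOXA5, HOXB5, FOXF2, TBX5 and FOXL1 could pass the filter on low counts only through resident cells. The list includes HOXA5 and HOXB5, already counted among the HOX genes above. Its weakest call was FOXP1, at 13.07, 12.71 and 15.83 CPM against 23.23, 17.34 and 15.9 CPM (log2 fold change -0.56 ± 0.18, edgeR adjusted p = 0.034). That call was lost without replicate 1 (edgeR adjusted p = 0.27) and without replicate 2 (0.063), and under DESeq2, and the classes nearly touched. The tested member of the list without a call was SOX5, at 5.551, 7.098 and 4.952 CPM against 4.005, 7.334 and 4.165 CPM.

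Higher in tumour-type cells were 5 members. Of the list of lung epithelial identity 9 were measured and 6 tested. Of these 4 were called higher (NKX2-1, FOXA2, KLF5 and FOXM1) and 1, FOXP1, lower, where 24.1% of all genes were called higher. FOXM1 had its highest class mean in T or NK cells (11.12 CPM) and did not pass the filter in the epithelial comparison below. Its place on this list is thus not borne out here. NKX2-1, the homeobox factor that specifies lung epithelium, stood at 84.55, 143.9 and 88.75 CPM against 2.403, 5.001 and 2.272 CPM in resident cells. The log2 fold change was 4.92 ± 0.17 (edgeR adjusted p = 2.1e-07), and every tumour-type animal lay above every resident one.

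KLF5, a Krüppel-like factor of proliferating and airway epithelia, stood at 74.93, 65.21 and 98.46 CPM against 5.207, 6.334 and 10.6 CPM (log2 fold change 3.31 ± 0.17, edgeR adjusted p = 1.7e-06). FOXA2, a pioneer factor of endoderm, stood at 4.132, 9.905 and 6.7 CPM against 0, 0.3334 and 0 CPM, or 196 UMIs against 1. FOXQ1, a forkhead factor known from mucous epithelium, stood at 5.736, 7.428 and 5.729 CPM against 0.4005, 1.0 and 1.136 CPM. The direction was the same in all 3 animals for each.

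FOXM1, which drives genes of mitosis, stood at 5.304, 9.079 and 4.369 CPM against 1.602, 0.6667 and 0.7573 CPM (log2 fold change 2.52 ± 0.45, edgeR adjusted p = 0.002). A list of 7 cell cycle markers stood at 594.8, 887.6 and 625.4 CPM in tumour-type cells against 123, 82.34 and 151.8 CPM, and its part in the FOXM1 difference was not tested.

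**Figure D3:**
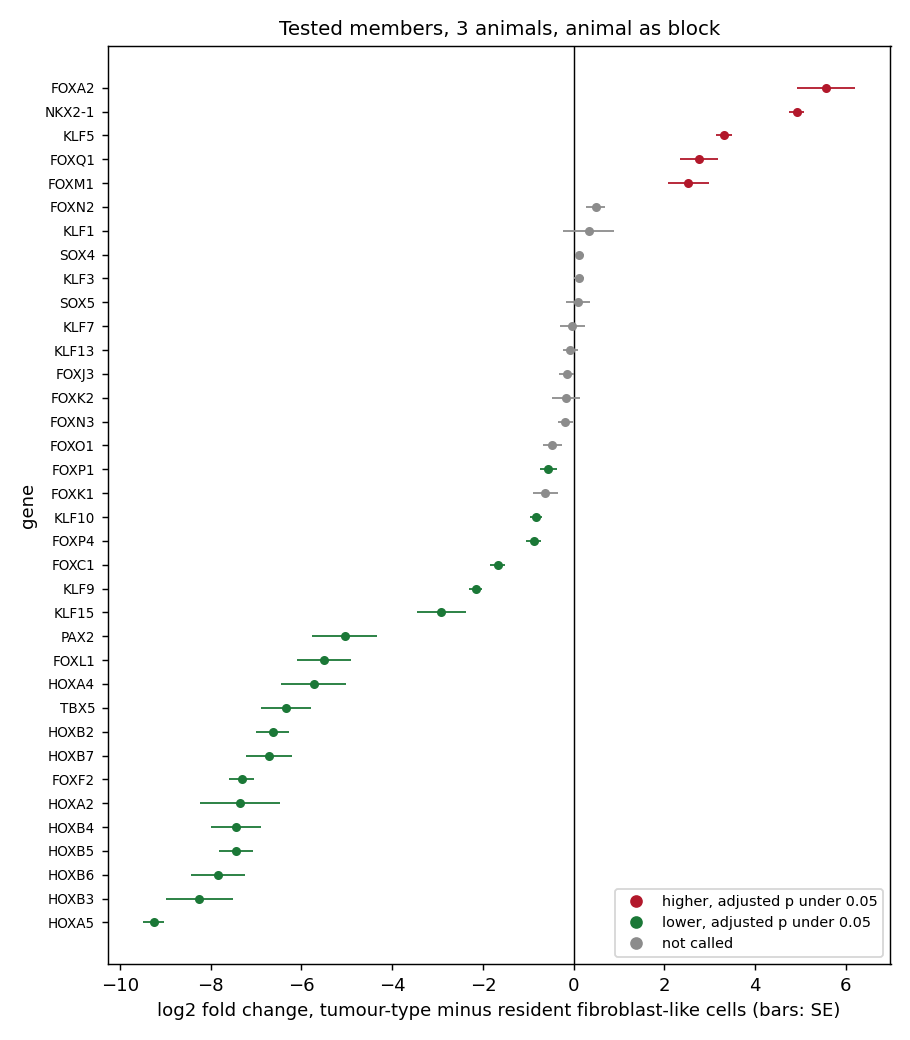
Log2 fold change with SE of tested members, tumour-type mesenchyme against resident fibroblasts, ordered by size and coloured by call at an adjusted p of 0.05. All tested HOX genes lie to the left of 0, and NKX2-1, FOXA2, KLF5, FOXQ1 and FOXM1 lie to the right.

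SOX4, a factor of progenitors in many tissues and a member with high counts, was not called: it stood at 481.4, 558.0 and 514.2 CPM against 364.1, 542.7 and 422.2 CPM (log2 fold change 0.13 ± 0.11, edgeR adjusted p = 0.36), and the classes overlapped. FOXO1, FOXN3, KLF3 and KLF13, on the lymphoid list, were not called either, with log2 fold changes of -0.47 ± 0.21, -0.19 ± 0.17, 0.12 ± 0.12 and -0.08 ± 0.16. That list had 7 tested members, of which 1 (FOXP1) was lower. The remaining members without a call were FOXK1, FOXK2, FOXJ3, FOXN2, KLF1 and KLF7, from -0.62 (FOXK1) to 0.49 (FOXN2) on the log2 scale.

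Called lower beyond the naming rule, and so named after their values were seen, were KLF9, KLF10 and FOXP4. KLF9, a glucocorticoid-responsive factor, stood at 18.13, 15.85 and 26.6 CPM against 98.12, 64.67 and 84.06 CPM (log2 fold change -2.16 ± 0.15). KLF10, induced by TGF-beta, had a log2 fold change of -0.83 ± 0.13, and FOXP4 one of -0.88 ± 0.17, a call lost in the finer clustering and with cells matched on UMIs.

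Partner proteins and other lineage factors, which are not members, were counted from fixed lists. These lists, and the lists of members above, were chosen with earlier results of these data known. Of 8 measured HOX cofactors 7 were tested, 0 were called higher and 3 lower. MEIS1 had the largest difference of these, at 1.295, 1.321 and 0.4855 CPM against 36.45, 40.67 and 31.05 CPM (log2 fold change -5.20 ± 0.24, edgeR adjusted p = 9.9e-07). PBX3 and PKNOX1 were also lower, with log2 fold changes of -2.04 ± 0.20 and -1.10 ± 0.27.

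Of 28 other lineage factors measured 18 were tested, with 10 called lower and 1 higher. Lower were the mesenchymal factors TCF21 (0 UMIs in tumour-type cells, and 9.612, 6.001 and 9.088 CPM in resident cells), OSR1 (log2 fold change -6.62 ± 0.28), MEOX2 (-6.47 ± 0.32), TWIST2 (-5.13 ± 0.43), GLI2 (-4.21 ± 0.65) and NR2F1 (-1.31 ± 0.21), with EBF1, IRF4, ETS1 and FLI1. The member of the list called higher was EHF, an ETS factor of epithelia, at 10.05, 26.25 and 13.79 CPM against 0.4005, 0.6667 and 0.7573 CPM (log2 fold change 4.65 ± 0.35). Not every mesenchymal factor was lower. PRRX2 was not called, at 125.8, 58.6 and 58.45 CPM against 115.7, 50.34 and 92.77 CPM (log2 fold change -0.23 ± 0.18). In epithelial cells PRRX2 stood at 1.001, 0.9476 and 0.8692 CPM. OSR2 was not called either (0.63 ± 0.36).

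Because tumour-type cells were deeper, each cell was thinned to 2000 UMIs before shares of cells were compared, which left out 92 tumour-type and 59 resident cells. A UMI of any HOX gene was found in 30.69% of resident cells (exact 95% interval 28.07 to 33.4; 61.29% unthinned) and in 0.2614% of tumour-type cells (0.07128 to 0.668; 2.466% unthinned). The share in T or NK cells (median 2744 UMIs before thinning) was 0.414% (0.2414 to 0.6621), so the tumour-type share was no higher than theirs. Whether the HOX UMIs of T or NK cells are background was not tested. HOXA5 was found in 14.25% of resident cells and in 0 of 1530 tumour-type cells, which allows up to 0.2408%.

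NKX2-1 was found in 16.93% of thinned tumour-type cells (15.08 to 18.9; 60.23% unthinned), with 16.57, 19.57 and 16.09% in replicates 1, 2 and 3. The share was 32.63% in epithelial cells, 0.5902% in resident fibroblasts (0.2376 to 1.212) and 0.3166% in T or NK cells (0.1687 to 0.5408). KLF5 was found in 13.33% of tumour-type, 21.75% of epithelial, 0.9275% of resident and 1.607% of T or NK cells. The intervals cover counting error only.

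**Figure D4:**
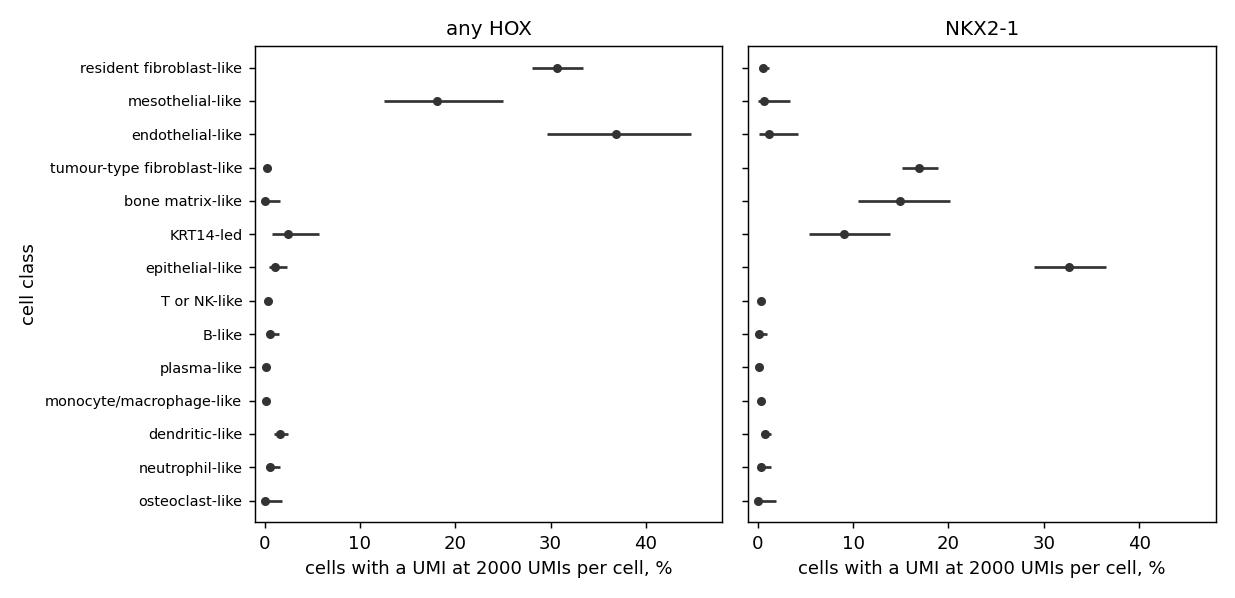
Share of cells with at least 1 UMI after thinning each cell to 2000 UMIs, by cell class, for any HOX gene and for NKX2-1, with exact 95% binomial intervals. Any HOX gene is at 30.69% in resident fibroblasts and 0.2614% in tumour-type cells, and NKX2-1 is at 0.5902% and 16.93%.

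NKX2-1 and collagen RNA were found in the same tumour-type cells. Among thinned cells with a UMI of NKX2-1 (112, 54 and 93), COL1A1 was found in 81.25, 55.56 and 84.95%, against 85.28, 64.86 and 81.44% of tumour-type cells without one. EPCAM, an epithelial surface gene, was found in 6.25, 9.259 and 3.226% of the former and in 3.546, 8.108 and 4.33% of the latter. In epithelial cells with NKX2-1 the order was the reverse, with EPCAM in 62.96, 77.36 and 63.83% and COL1A1 in 5.556, 5.66 and 3.191%.

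Markers of other cells were set beside these values. The alveolar type 2 list, which SFTPC leads, stood at 62.72, 106.5 and 194.5 CPM in tumour-type cells and 75.29, 83.34 and 117.4 CPM in resident cells. It stood at 76.25, 97.88 and 125.4 CPM in T or NK cells, so it did not separate the 2 fibroblast-like classes. The monocyte or macrophage list stood at 12640, 13140 and 14690 CPM in tumour-type and 22840, 13000 and 25780 CPM in resident cells, but only at 7076, 7177 and 6586 CPM in monocytes or macrophages themselves, so its sum does not mark macrophages here. What part the RNA of the general and basal epithelial lists given above had in the NKX2-1 and KLF5 differences was not tested.

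Within resident fibroblasts the finer clustering gave 2 subclusters, whose levels are described here with no test. In the subcluster led by FIBIN and MFAP4, FOXF2 stood at 67.51, 99.4 and 32.5 CPM and FOXC1 at 14.74, 14.13 and 18.49 CPM. In the subcluster led by CCL11, CCL19 and DPT, FOXF2 stood at 3.311, 10.26 and 2.336 CPM and FOXC1 at 46.35, 41.06 and 37.37 CPM. FOXF2 and FOXC1 were in opposite order, without overlap between the subclusters.

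The HOX sum did not follow that split as sharply. It was 190.9, 209.2 and 190.0 CPM in the first subcluster and 162.2, 165.4 and 206.7 CPM in the second, and TBX5 was 16.3, 11.78 and 5.603 CPM against 3.311, 6.843 and 4.672 CPM. In the tumour-type subcluster led by GKN2 and FGF5 NKX2-1 stood at 106.4, 146.3 and 92.56 CPM, and in the one led by MMP3 and SFRP4 at 61.81 and 53.23 CPM in replicates 1 and 3, with under 20 cells in replicate 2.

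Besides the tumour-type and epithelial cells, 2 Alk-bearing classes lay almost wholly in replicate 2, with at most 8 cells in each other animal, so their values are from 1 library. The bone matrix class (216 cells in replicate 2, Alk 48.72 CPM) held SOX4 at 771.6, NKX2-1 at 90.2 and FOXC1 at 44.31 CPM. It also held 62 of the 71 UMIs of NKX2-5, the cardiac homeobox factor, at 10.94 CPM, with TBX1 at 6.884 and SOX18 at 7.237 CPM. Its HOX sum was 1.412 CPM.

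The other such class was a cluster led by ELAVL2, SERPINE2, PTPRQ, SPINK5, KRT14 and GAD2 (199 cells in replicate 2, Alk 64.76 CPM). It held KLF5 at 146.9, FOXQ1 at 34.83, NKX2-1 at 31.11, FOXP2 at 12.34 and PAX8 at 6.933 CPM. It also held PAX6, the eye, islet and brain factor, at 14.2 CPM. PAX6 was not particular to it, at 6.049, 8.819 and 2.538 CPM in dendritic cells of replicates 1, 2 and 3. The HOX sum of this KRT14-led class was 7.947 CPM, of which HOX cluster D gave 6.426 CPM. This was mainly HOXD4 at 4.566 CPM (27 UMIs) and HOXD9 at 1.86 CPM (11 UMIs). Bone matrix markers were also raised in other classes of replicate 2 (678.7 CPM in resident cells, against 11.61 and 3.787 CPM in replicates 1 and 3).

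**Figure D5:**
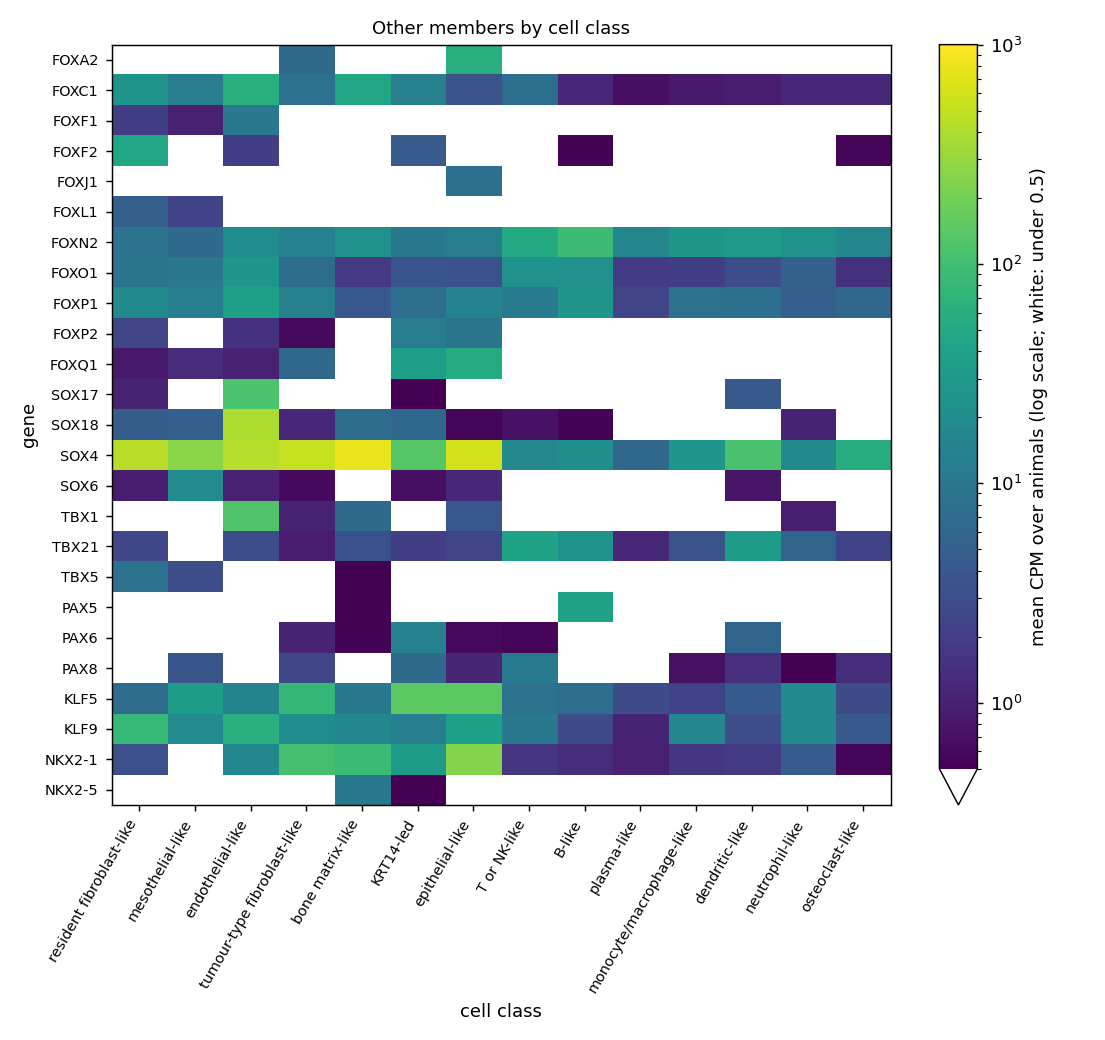
Mean CPM of members outside the HOX clusters (rows) in each cell class (columns), on a log colour scale that is white under 0.5. SOX18, SOX17 and TBX1 are high in endothelial cells, FOXF2 in resident fibroblasts, FOXA2 in epithelial cells and PAX5 in B cells, while NKX2-1 is high in epithelial, tumour-type and bone matrix cells and KLF5 in epithelial, KRT14-led and tumour-type cells.

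Epithelial cells (649 in all, 194, 125 and 330 per animal) were compared with the same resident fibroblast libraries, so this comparison is not independent of the previous one. Of 33 members tested 7 were called higher in epithelial cells, 14 lower and 12 neither, where 42.8% of all 10544 genes tested were called (22.3% higher, 20.5% lower). The median log2 fold change of the tested members was -0.74, against 0.00 over all genes. Of the lung epithelial identity list 7 members were tested, of which 5 were higher and 0 lower.

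NKX2-1 stood at 196.6, 339.2 and 189.2 CPM in epithelial cells, a log2 fold change over resident cells of 6.09 ± 0.18 (edgeR adjusted p = 1.2e-07). FOXA2 stood at 50.03, 77.7 and 51.86 CPM, and was the largest increase, 8.35 ± 0.40 on the log2 scale. KLF5 stood at 158.1, 113.7 and 167.8 CPM. Side by side, NKX2-1 was 241.7 ± 84.6 CPM in epithelial and 105.7 ± 33.2 CPM in tumour-type cells (mean ± SD, n = 3), KLF5 146.5 ± 28.8 and 79.5 ± 17.1 CPM, and FOXA2 59.9 ± 15.5 and 6.91 ± 2.89 CPM. The epithelial class joins subclusters with and without Alk RNA, and the difference between these classes was not tested.

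FOXQ1 stood at 58.54, 58.75 and 44.33 CPM in epithelial cells (log2 fold change 5.77 ± 0.31). FOXJ1, the master factor of motile cilia, stood at 12.51, 8.528 and 4.056 CPM against 0.4005, 0 and 0 CPM (5.49 ± 0.69, edgeR adjusted p = 0.00028), and at 73.37, 46.82 and 40.34 CPM in the ciliated subcluster. FOXP2, of distal lung epithelium, was higher by 1.71 ± 0.42 and KLF1, the erythroid factor, by 1.93 ± 0.44. The call on KLF1 was lost without replicate 1 (edgeR adjusted p = 0.075) and that on FOXP2 without replicate 2 (0.056).

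All 7 HOX genes tested were lower in epithelial cells. They could pass the filter on low counts only through resident cells, so this count describes the tested genes alone. HOXA5 had 3 UMIs against 636 (0, 0 and 0.8692 CPM), and HOXB5 2 against 336. HOXB2, HOXB6 and HOXA4 had no UMI in epithelial cells and were at least 34.9-fold, 22.6-fold and 13.3-fold lower against a floor of 3 UMIs over the class, and TBX5 was at least 18.6-fold lower. FOXF2 had 2 UMIs against 371, and FOXC1 had a log2 fold change of -2.85 ± 0.28. KLF9 and KLF10 were lower too, with log2 fold changes of -1.32 ± 0.15 and -0.74 ± 0.13, as was FOXO1 (-1.45 ± 0.36). The call on FOXO1 was lost without replicate 1 (edgeR adjusted p = 0.07), and that on KLF10 with the KRT14-led cluster joined to the epithelial cells.

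Endothelial cells had the SOX genes of vessels as leading members. SOX18 stood at 391.2, 489.7 and 281.2 CPM and was found in 53.57% of thinned endothelial cells against 0.07306% of T or NK cells. SOX17 stood at 95.49, 139.9 and 113.8 CPM, and TBX1, a factor of the pharyngeal arches and lymphatic vessels, at 154.0, 81.87 and 135.9 CPM. GATA2, of endothelium and blood progenitors, stood at 27.72, 22.33 and 15.8 CPM, FOXC1 at 86.25, 37.21 and 50.56 CPM, and FOXF1, of pulmonary vessels, at 6.16, 10.42 and 15.8 CPM. NKX2-1 varied from 0 to 47.4 CPM between the animals in this class, and mesothelial cells stood out for SOX6 at 21.78 and 16.84 CPM in replicates 2 and 3.

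Among leukocytes, T or NK cells (5304) were compared with monocytes or macrophages (3785), the largest immune classes. Of 26 members tested 10 were called higher in T or NK cells, 6 lower and 10 neither, where 56.8% of all 11829 genes tested were called (27.2% higher, 29.6% lower). TBX21, which encodes T-bet of type 1 lymphocytes, stood at 43.59, 42.72 and 34.46 CPM against 2.284, 7.774 and 0.4691 CPM (log2 fold change 3.51 ± 0.57, edgeR adjusted p = 0.003). FOXO1, which maintains quiescent lymphocytes, stood at 26.86, 17.75 and 30.38 CPM against 1.675, 2.442 and 2.01 CPM (3.28 ± 0.27, edgeR adjusted p = 2.0e-04). Neither overlapped between the classes.

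PAX8, known from thyroid and kidney, stood at 13.77, 15.76 and 3.628 CPM in T or NK cells against 0.6091, 1.157 and 0.3351 CPM (log2 fold change 3.65 ± 0.27, edgeR adjusted p = 0.00014). FOXC1 stood at 6.073, 6.266 and 11.11 CPM against 0.6852, 1.028 and 0.8712 CPM, and KLF13, a lymphocyte Krüppel-like factor, at 39.41, 34.94 and 51.92 CPM against 17.51, 18.76 and 10.99 CPM. KLF5, FOXM1, FOXN2 and FOXJ3 were higher by 1.64 ± 0.21, 1.01 ± 0.26, 0.63 ± 0.15 and 0.61 ± 0.13 on the log2 scale. Of the 7 tested members of the lymphoid list 3 were higher and 3 lower.

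Lower in T or NK cells was KLF10, at 15.38, 17.18 and 17.23 CPM against 39.21, 49.28 and 39.2 CPM (log2 fold change -1.64 ± 0.13, edgeR adjusted p = 0.00019). KLF3, KLF9, SOX4, KLF7 and FOXN3 were lower too, with log2 fold changes of -0.94 ± 0.17, -0.90 ± 0.21, -0.86 ± 0.14, -0.86 ± 0.29 and -0.44 ± 0.13. The values of SOX4, KLF7 and FOXN3 overlapped between the classes. Without replicate 1 only 6 higher and 3 lower members were called, and calls lost included those on FOXM1, FOXN2, FOXJ3, KLF9, KLF7 and FOXN3. The calls on KLF7 and FOXM1 were also lost without replicate 2, with a minimum of 2000 UMIs per cell and in the finer clustering, and that on KLF7 without replicate 3 and under DESeq2. The monocyte or macrophage class was filled by different clusters in replicate 3 and in the other animals. Unnamed clusters of 2000, 1163 and 1010 cells also scored on the monocyte or macrophage list and were left out of this class. With these joined, the class in replicate 3 went from 1004 to 3111 cells. All 10 higher members then stayed called, and of the 6 lower ones KLF7 lost its call.

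B cells were set apart by PAX5, the factor that commits cells to the B lineage, at 33.73, 44.29 and 41.69 CPM. It was found in 8.028% of thinned B cells and 0.04871% of T or NK cells. FOXN2 stood at 102.1, 82.25 and 92.65 CPM in B cells, and TBX21 at 23.8 ± 13.1 CPM (mean ± SD, n = 3). TBX21 was found in 7.696% of thinned T or NK cells, 5.593% of dendritic cells, 4.887% of B cells and 0.2531% of plasma cells. In dendritic cells it stood at 36.97, 58.87 and 3.384 CPM, so replicate 3 was far below the other animals there.

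The remaining members were thinly measured. Of the 124 members 50 reached a mean of at least 5 CPM in some class, 51 had UMIs but stayed under 5 CPM in every class, and the other 23 had no UMI in kept cells.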

How the data were processed

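UMI counts were deposited without normalization, 1 matrix per animal. They came from Cell Ranger 7.1.0, per the file headers, or 8.0.0, per the submitters' processing notes, with the genome build not given in the sources used here. The filters were 1000 UMIs, 500 genes and, for the 13 mitochondrial genes, under 20% of counts, and 445 of 25044 cells with a Scrublet score of at least 0.2 were removed. Clustering (scanpy 1.11.5: 2000 variable genes, 30 components, Leiden resolution 1) left out all members and listed genes. A class needed at least 3 markers in at least 10% of cells and a score (mean log2) at least 1 above the median cluster, with no other lineage at 80% of it. The doublet limit and the rules on rival classes were set after clusters were seen. Levels are CPM of summed counts per animal and class with at least 20 cells. edgeR 4.0.16 (TMM, filterByExpr, quasi-likelihood, animal as block, adjusted p of 0.05) tested 3 comparisons and was checked on simulated counts. Both classes come from the same animals, whose deviations correlated at 0.254 to 0.495. Members and lists were chosen with earlier results of these data known. Values are named for up to 15 members called in each direction by size of fold change and the same in all animals, for tested list members, and for up to 6 members per class with a mean of at least 5 CPM and at least 4 times the median of the other classes. Of the symbols that the rule allows, 34 in RefSeq had no such symbol in the feature list and are not analysed here. A few genes that enter the counts are not reported by name here.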

Additional observations from a re-analysis of the deposited data

How the results depend on the processing

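Across the alternatives run, every HOX gene of the tumour-type comparison that was still tested stayed called lower (7 of 7 at resolution 2, 4 of 4 with cells matched on UMIs, 3 of 3 with thinned cells). The rest of the 9 HOX genes were not tested in these settings. With the filter on low counts these genes enter the test only through resident cells. These counts could therefore hardly come out otherwise and add no separate support. Higher members fell from 5 to 2 at resolution 2, with matched cells and with thinned cells, since FOXA2, FOXQ1 and FOXM1 were no longer tested there. Resolution 2 kept only 335, 10 and 54 tumour-type cells. Lower members went from 20 to 10 (matched), 8 (thinned) and 31 (no filter on low counts). In the epithelial comparison lower members went from 14 to 8 (matched), 6 (thinned) and 25 (no filter), and higher ones from 7 to 4 (thinned). In leukocytes, leaving out a replicate gave 6 to 10 higher and 3 to 5 lower members. Without the replicate block the counts higher and lower were 5 and 19 in mesenchyme, 7 and 13 in epithelium and 9 and 4 in leukocytes, and FOXP1 (mesenchyme), FOXO1 (epithelium), FOXN2, KLF7 and FOXN3 (leukocytes) lost their calls. DESeq2 moved the median over all genes of the mesenchyme comparison to -0.104.

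No reversed result was a call. In mesenchyme, the SOX5 log2 fold change went to -0.0129 with members kept in clustering, and ran from -0.0413 to 0.237 with a replicate left out. FOXN3 went to 0.153 (matched), and KLF3 to -0.142 (resolution 2), -0.0367 (matched) and -0.401 (thinned). KLF13 went to 0.0688 (minimum of 2000 UMIs), 0.183 (resolution 2) and 0.0886 (members kept), and ran from -0.215 to 0.0798 with a replicate left out. In epithelium, SOX4 went to -0.101 and KLF13 to 0.0763 with the KRT14-led cluster joined, and FOXN3 ran from -0.274 to 0.0465 with a replicate left out. Without replicate 2, members not called before became calls there: SOX4 at 0.612 and KLF13 at -0.781 (edgeR adjusted p = 0.00065 and 0.029), and FOXP1. In leukocytes FOXP1 went to -0.0478 (minimum of 2000 UMIs) and -0.318 (matched). The cause was not tested. Defining tumour-type cells by IGF2 and MMP3 chose the same cells, and joining mural cells was not run, as no cluster was named mural. Most HOX genes had too few UMIs for single-gene statements outside resident fibroblasts and endothelial cells.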
